A study of Rattus norvegicus with 36 samples.

Results

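The miRNAs described here are rno-miR-702-3p, rno-miR-1249, rno-miR-6328, rno-miR-664-3p, rno-miR-664-2-5p and rno-miR-532-3p, called the members of the list. They were chosen by name, and the names were picked because their read counts were higher in lung 1 and 2 weeks after 15 Gy. They are 6 of the 947 miRNAs in the count table, which names 458 known rat miRNAs, 116 that match another species' miRNA and 373 predicted new ones. The lung values at 1 and 2 weeks made the choice, so they are given as a description with no test. The tests concern lung at 3 and 4 weeks and whole blood at 1 to 4 weeks. Lung against blood is a test for rno-miR-532-3p alone and a description for the other members.

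The animals were female WAG/RijCmcr rats aged 9 to 10 weeks at irradiation. Lung and whole blood were sequenced 1, 2, 3 and 4 weeks after a single 15 Gy dose of X-rays to the whole thorax, and at 1 and 4 weeks in age-matched rats that were not irradiated (0 Gy). Each of the 6 groups per tissue had 3 small RNA libraries, 36 in all. The field held the whole lung, the heart and a small part of the liver, so blood passed through irradiated heart and liver as well as lung. By the study's methods each library pooled the RNA of 3 rats, whereas the labels give 3 rats a group, so p-values measure the spread between libraries, which may be partly technical.

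A typical miRNA is cut from a hairpin transcript first by Drosha in the nucleus and then by Dicer, and the mature strand guides an Argonaute protein to mRNAs that match its seed. Some miRNAs skip the first cut. Mirtrons are short introns whose ends are made by splicing, and other small RNAs are cut from small nucleolar RNAs of the H/ACA class. In mouse, miR-702 is a mirtron of Plod3, and in human, miR-664 overlaps an H/ACA snoRNA. By contrast, miR-532 belongs to an X-linked cluster in Clcn5 that is regarded as canonical, so a shared noncanonical origin was not established for the list.

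The mature sequences, read from RefSeq on rat build GRCr8, are shown because they carry both the seeds and the base composition that recur in the results. They run 5′ to 3′, with the seed (bases 2 to 8) in capitals. The partner arm miR-532-5p follows the members, and so does miR-664-1-5p, the 5p arm of the other miR-664 gene, which was not analysed here.
rno-miR-702-3p: uGCCCACCcuuuaccccacucca
rno-miR-1249: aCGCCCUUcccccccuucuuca
rno-miR-6328: aGGCCUGCucugagcccccgc
rno-miR-664-3p: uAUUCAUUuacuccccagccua
rno-miR-664-2-5p: cUGGCUGGggaaaaugauugg
rno-miR-532-3p: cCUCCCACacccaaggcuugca
rno-miR-532-5p: cAUGCCUUgaguguaggacugu
rno-miR-664-1-5p: cUGGCUGGggaaaaagauugg

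The 6 members had 6 different seeds, and none of those seeds occurred in another of the 413 known rat miRNAs of the table that had a RefSeq sequence. The list therefore shares no seed family. Cytosine was common in 5 members, at 59.1% of bases in rno-miR-1249, 56.5% in rno-miR-702-3p, 50% in rno-miR-532-3p, 47.6% in rno-miR-6328 and 36.4% in rno-miR-664-3p. The median was 22.7% over the 218 known rat miRNAs that were tested in lung and had a sequence. rno-miR-664-2-5p was the exception with 9.52%, since it is the arm opposite rno-miR-664-3p. rno-miR-1249 held a run of 7 cytosines, the longest of the members.

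On GRCr8, rno-miR-702-3p was at chr12:25318499-25318521 on the minus strand, inside Plod3, which encodes a collagen lysyl hydroxylase and is on the same strand. rno-miR-1249 was at chr7:117955547-117955568 on the minus strand, inside Kiaa0930 on the same strand. rno-miR-6328 was at chr20:2890159-2890179 on the plus strand, inside the span of Ppp1r18, which is on the other strand. rno-miR-664-2-5p was at chr13:99324650-99324670 and rno-miR-664-3p at chr13:99324687-99324708, both on the plus strand inside Rab3gap2. rno-miR-532-3p was at chrX:17919232-17919253 on the plus strand inside Clcn5, which encodes a chloride and proton exchanger. Whether these positions are exonic or intronic was not given by the gene spans used here.

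The mature rno-miR-664-3p was also annotated at chr18:48150403-48150424 in Snora36c, a small nucleolar RNA gene, so its reads cannot be assigned to 1 of the 2 genes. The 5p arms can be told apart: from the 5′ end of rno-miR-664-2-5p, the chromosome 18 arm differs by 1 base of 21, U15A. The 2 hairpins that bear on unusual processing are shown next, with the mature arms in capitals. The Mir702 hairpin begins with GU, and the base after its 3p arm is a G that completes an AG, the letters at the start and end of most introns. This is a description of the letters and not a test of splicing.
Mir702: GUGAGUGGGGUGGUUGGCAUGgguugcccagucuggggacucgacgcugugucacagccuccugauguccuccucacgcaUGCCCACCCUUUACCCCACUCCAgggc
Mir664-2: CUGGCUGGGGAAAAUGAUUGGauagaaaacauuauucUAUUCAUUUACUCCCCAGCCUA

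All 6 members are rare miRNAs. Over 18 lung libraries they summed to 3357 of 22504433 counts (0.0149%), and over 18 blood libraries to 460 of 34242343 counts (0.00134%). Total counts per library were 8132 to 3807051 in lung (median 1269432) and 1156407 to 2340177 in blood (median 1890243). In lung, 2 libraries were far shallower than the other 16, which had at least 239592 counts. They were replicate 3 of 0 Gy 1 week (11621 counts) and replicate 3 of 15 Gy 3 weeks (8132 counts). The first had 0 counts of every member, which allows up to 3 counts, or 161 normalised CPM (counts scaled by library total and the TMM factors of edgeR), more than any member's level in the deep libraries. The second had 2 counts of members in all, 1 each of rno-miR-6328 and rno-miR-664-3p. Levels below are from the 16 deep lung libraries unless stated, and the fits used all 18.

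Tissue markers followed the labels. Of 9 miRNAs listed as lung or airway markers, such as miR-143-3p of smooth muscle and miR-126a of endothelium, 9 of 9 were higher in lung than in blood. They took 7.48% to 18.95% of counts in the 16 deep lung libraries and 0.0122% to 0.0268% of blood counts. Of 5 red cell miRNAs, 5 of 5 were lower in lung, and miR-486-5p alone took 83.27% to 95.92% of blood counts, against 0.693% to 5.65% in the 16 deep lung libraries.

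In lung at 1 and 2 weeks, the weeks used for the choice, all 6 members had positive fitted changes at both times. Levels are normalised CPM, while plain CPM use library totals alone, and values are given by replicate in order. rno-miR-702-3p had 41.5, 27.0 and 45.3 at 15 Gy 1 week and 13.7, 40.1 and 33.0 at 15 Gy 2 weeks, against 7.62 and 13.7 at 0 Gy 1 week. Its lowest 2-week library thus sat at the level of the higher control. The fitted log2 changes were 1.91 (SE 0.56) at 1 week and 1.48 (SE 0.57) at 2 weeks, the second of which was 0.91 without replicate 2 at 2 weeks and 0.97 without replicate 1 of the controls.

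rno-miR-1249 had 47.1, 17.2 and 34.9 at 15 Gy 1 week and 21.2, 28.8 and 84.8 at 15 Gy 2 weeks, against 13.6 and 8.56 at 0 Gy 1 week. rno-miR-6328 had 28.8, 14.7 and 31.2 at 15 Gy 1 week and 15.6, 22.6 and 80.1 at 15 Gy 2 weeks, against 8.17 and 6.85 at 0 Gy 1 week. In both, replicate 3 at 2 weeks stood far above the others and rested on few reads, 18 counts of rno-miR-1249 and 17 of rno-miR-6328 among 239592. The log2 changes at 2 weeks, 1.99 (SE 0.65) and 2.32 (SE 0.77), were 1.15 and 1.29 without that library. At 1 week they were 1.65 (SE 0.63) and 1.79 (SE 0.75).

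rno-miR-664-3p was the most abundant member, with 92.8, 160 and 109 at 15 Gy 1 week and 71.1, 87.8 and 122 at 15 Gy 2 weeks, against 57.2 and 48.8 at 0 Gy 1 week. No 15 Gy library of either week overlapped with the deep controls. Its log2 changes were 1.40 (SE 0.47) at 1 week and 1.03 (SE 0.47) at 2 weeks. Without the shallow control they were 0.97 and 0.61, so part of each change came with that library. The other members were also lower without the shallow libraries, on log2 means of plain CPM plus 1, a scale unlike that of the fits. At 1 week rno-miR-702-3p had 1.51, rno-miR-1249 1.25, rno-miR-6328 1.38, rno-miR-664-2-5p 1.76 and rno-miR-532-3p 1.14. At 2 weeks they had 1.1, 1.59, 1.91, 0.80 and 0.71 in that order.

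rno-miR-664-2-5p had 40.1, 9.82 and 9.37 at 15 Gy 1 week and 14.3, 10.0 and 4.71 at 15 Gy 2 weeks, against 3.27 and 5.13 at 0 Gy 1 week. A single library, replicate 1 at 1 week, stood far above the others. The log2 change of 2.29 (SE 0.65) at 1 week was 1.22 without it. At 2 weeks the change was 1.37 (SE 0.66), or 0.84 without replicate 1, and replicate 3 there held 1 count.

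rno-miR-532-3p was the most even member, with 19, 19.6 and 19.8 at 15 Gy 1 week and 13.7, 16.3 and 14.1 at 15 Gy 2 weeks, against 9.80 and 4.28 at 0 Gy 1 week. The log2 changes were 1.47 (SE 0.49) at 1 week and 1.08 (SE 0.50) at 2 weeks. They were 0.87 and 0.52 without replicate 2 of the controls, in which the miRNA had 5 counts. The 1-week and 2-week libraries share the same controls, so the 2 sets of changes are not independent of each other.

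**Figure D1:**
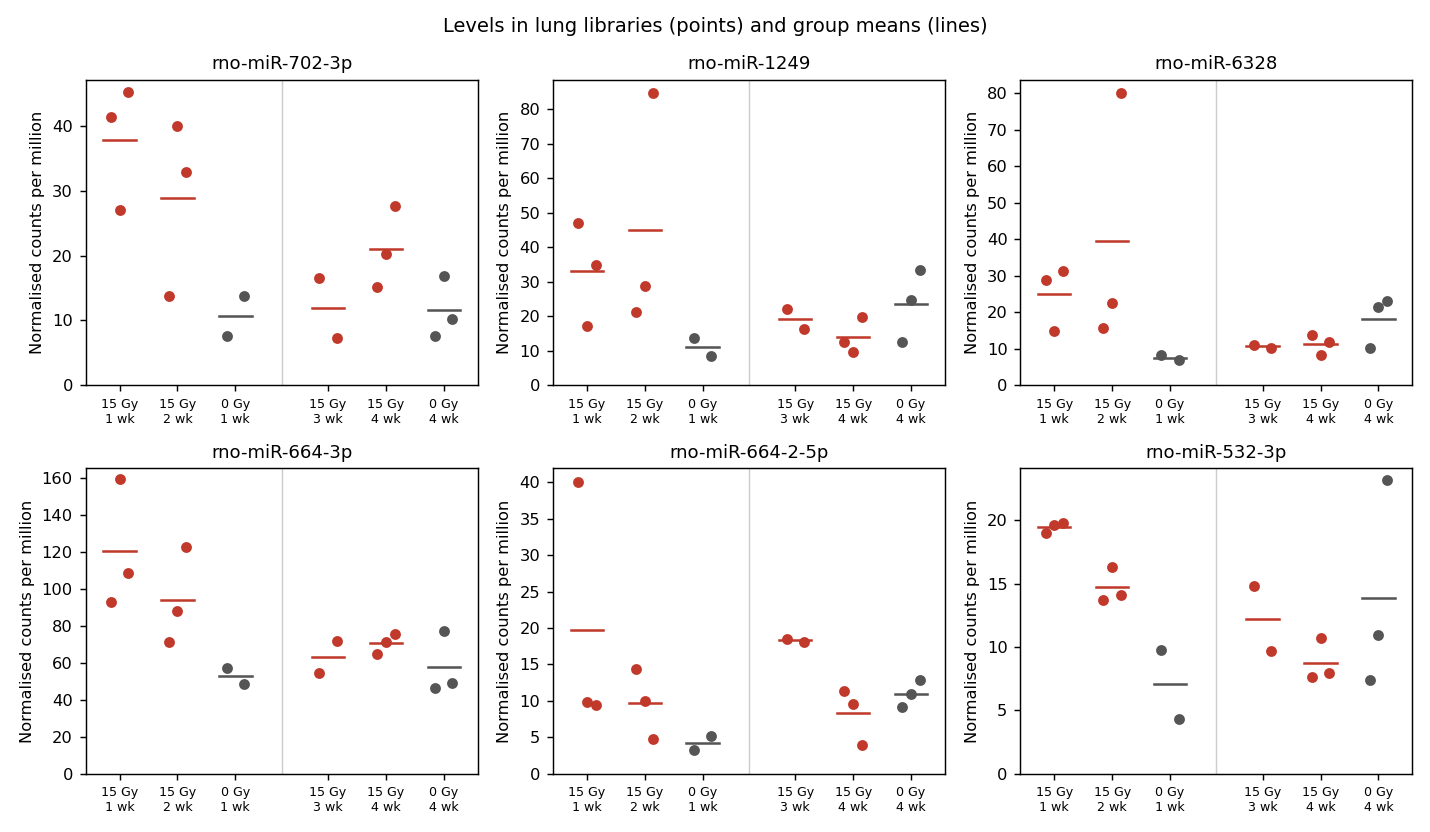
Each panel shows 1 member, with normalised CPM on the vertical axis and the 15 Gy and 0 Gy groups of lung on the horizontal axis (points are libraries, lines are group means, red is 15 Gy, grey is 0 Gy, and the 2 shallow libraries are left out). At 1 week every red point lies above both grey points (for rno-miR-532-3p, 19 to 19.8 against 4.28 and 9.80). That week chose the members, so nothing is read from this. At 3 and 4 weeks red and grey points mostly share one range.

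Counts of members at these weeks describe the choice, and nothing is read from them. At 1 week 6 of 6 members were higher at an unadjusted p under 0.05 (6.41% of the 499 miRNAs tested, 32 miRNAs), and at 2 weeks 5 of 6 were (4.81%, 24 miRNAs), all but rno-miR-664-2-5p. No miRNA of the table, member or other, passed an adjusted p of 0.05 at either week (0% of 499; edgeR's quasi-likelihood test with Benjamini-Hochberg adjustment), whereas DESeq2 called 6 miRNAs at each week and no member.

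The control group matters for these changes. The 0 Gy 4 weeks lungs had higher mean levels than the deep 0 Gy 1 week lungs in all 6 members on this scale, a difference that was not tested. On log2 means of plain CPM the direction turned for rno-miR-702-3p (-0.28) and rno-miR-664-3p (-0.29). rno-miR-6328 averaged 18.2 ± 7.08 at 0 Gy 4 weeks (SD, n = 3) and 7.51 ± 0.933 at 0 Gy 1 week (SD, n = 2), and rno-miR-664-2-5p averaged 11 ± 1.86 and 4.2 ± 1.32 in the same 2 groups. rno-miR-702-3p was nearly level, at 11.6 ± 4.75 and 10.7 ± 4.29. With both 0 Gy groups pooled as the control, the log2 changes stayed positive and ranged from 0.86 (rno-miR-532-3p) to 1.79 (rno-miR-702-3p) at 1 week, and from 0.38 (rno-miR-664-2-5p) to 1.44 (rno-miR-6328) at 2 weeks. rno-miR-702-3p kept nearly its whole difference, while those of rno-miR-1249 and rno-miR-6328 at 1 week came down to 0.91 each.

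At 3 and 4 weeks, which played no part in the choice, the early difference was not seen against the 0 Gy 4 weeks lungs. On normalised CPM, those controls had higher means than the earlier deep controls in all 6 members, by differing amounts. The change of reference can therefore itself reduce the fitted changes. Whether the irradiated levels fell after the early weeks was not tested. No member passed the threshold, and 0% of the 499 miRNAs did at either time (edgeR, adjusted p under 0.05). At an unadjusted p under 0.05 there were 0 members at both times, among 39 miRNAs at 3 weeks and 48 at 4 weeks. DESeq2 called 5 and 11 miRNAs of the whole table at 3 and 4 weeks, none of them a member. The median log2 change of the 6 members was -0.08 at 3 weeks and -0.43 at 4 weeks, beside medians of -0.10 and -0.18 over all miRNAs tested.

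At 3 weeks, rno-miR-702-3p had 16.6 and 7.25 at 15 Gy, against 7.65, 16.9 and 10.3 at 0 Gy 4 weeks, and the log2 change was -0.0043 (95% interval -1.11 to 1.1, edgeR, adjusted p = 1). The 3-week libraries spanned nearly the same range as the controls. rno-miR-1249 had 22.2 and 16.3 at 15 Gy, against 12.6, 24.6 and 33.4 at 0 Gy, with a log2 change of -0.32 (interval -1.53 to 0.89). rno-miR-6328 had 11.1 and 10.3 at 15 Gy, against 10.1, 21.4 and 23.1 at 0 Gy, with a log2 change of -0.40 (interval -1.90 to 1.09). The intervals of these 3 members all reach below a log2 change of -1, and those of rno-miR-702-3p and rno-miR-6328 also reach above 1. Lower levels of that size thus remain possible in all 3, and higher levels in rno-miR-702-3p and rno-miR-6328.

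rno-miR-664-3p had 54.5 and 71.9 at 15 Gy 3 weeks, against 46.4, 77.5 and 48.8 at 0 Gy 4 weeks, and the groups overlapped. rno-miR-532-3p had 14.8 and 9.66 at 15 Gy, against 7.40, 10.9 and 23.1 at 0 Gy, and they overlapped too. rno-miR-664-2-5p had 18.5 and 18.1 in the deep libraries at 15 Gy against 9.13, 10.9 and 12.9 at 0 Gy, without overlap. The share of all miRNAs without overlap was not counted, so nothing is read from this. The log2 change of rno-miR-664-2-5p, 0.71 (interval -0.43 to 1.85), did not pass the test (edgeR, adjusted p = 0.794).

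At 4 weeks, rno-miR-702-3p had 15.2, 20.2 and 27.8 at 15 Gy, against 7.65, 16.9 and 10.3 at 0 Gy, the largest positive change among the members, 0.81 (interval -0.18 to 1.80, edgeR, adjusted p = 0.567). rno-miR-1249 lay the other way, with 12.4, 9.53 and 19.8 at 15 Gy against 12.6, 24.6 and 33.4 at 0 Gy and a log2 change of -0.80 (interval -1.95 to 0.34, edgeR, adjusted p = 0.637). rno-miR-6328 had 13.8, 8.34 and 11.9 at 15 Gy against 10.1, 21.4 and 23.1 at 0 Gy. The 15 Gy and 0 Gy ranges of all 3 members overlapped.

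rno-miR-664-3p was tight at 64.7, 71.5 and 75.4 at 15 Gy 4 weeks, against 46.4, 77.5 and 48.8 at 0 Gy 4 weeks. rno-miR-664-2-5p had 11.4, 9.53 and 3.97 at 15 Gy against 9.13, 10.9 and 12.9 at 0 Gy. rno-miR-532-3p had 7.61, 10.7 and 7.93 at 15 Gy against 7.40, 10.9 and 23.1 at 0 Gy. Replicate 3 at 0 Gy 4 weeks was scaled up strongly, so that its rno-miR-532-3p was 23.1 normalised and 10.7 plain CPM. The interval of the rno-miR-532-3p change was -1.49 to 0.29 on the log2 scale. Its unadjusted p of 0.387 (edgeR) exceeds what that interval implies, so neither a lower level nor a gain is excluded.

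**Figure D2:**
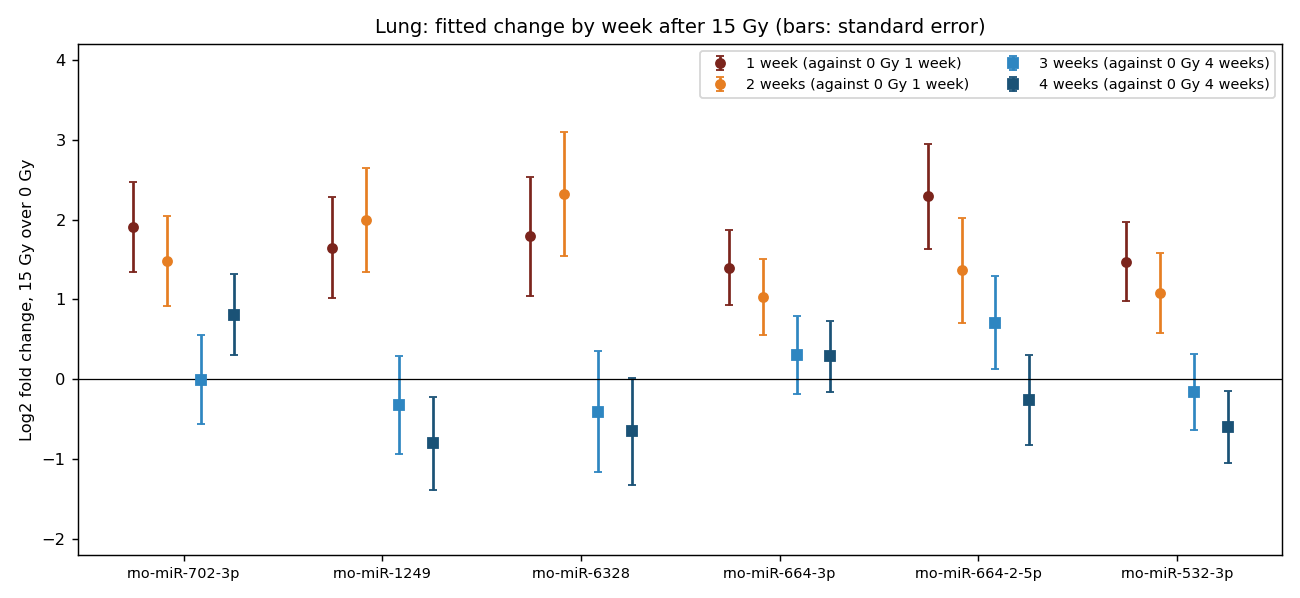
The vertical axis is the fitted log2 fold change of 15 Gy over 0 Gy in lung, and the horizontal axis lists the 6 members with 1 symbol a week (circles, 1 and 2 weeks against 0 Gy 1 week, squares, 3 and 4 weeks against 0 Gy 4 weeks, bars, standard errors). All circles lie between 1.03 and 2.32 because those weeks chose the members, and the squares lie between -0.80 and 0.81.

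The members varied together only in part. Over the 16 deep lung libraries, Pearson r of the log2 levels ranged from 0.11 to 0.94 over the 15 pairs of members, with a median of 0.52, beside 0.012 over all pairs of 242 known rat miRNAs. rno-miR-1249 and rno-miR-6328, on different chromosomes, were the closest pair (r = 0.94). rno-miR-664-3p and rno-miR-664-2-5p, the 2 arms of one hairpin, were the least alike (r = 0.11). These values are descriptions: all points share library depth and scaling, and the early weeks that chose the members are among the 16 libraries.

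The 3 known rat miRNAs most like rno-miR-702-3p over the 16 lung libraries were let-7d-3p (r = 0.72), let-7b-3p (r = 0.71) and miR-455-3p (r = 0.69). rno-miR-664-3p was most like miR-455-3p (r = 0.88), let-7b-3p (r = 0.82) and let-7e-3p (r = 0.78). rno-miR-1249 and rno-miR-6328 shared their 2 nearest, miR-328a-3p (r = 0.78 and 0.80) and miR-151-3p (r = 0.76 and 0.78), followed by miR-351-5p (r = 0.74) for rno-miR-1249 and miR-92b-3p (r = 0.76) for rno-miR-6328. Several of these are the minor arms of their hairpins. rno-miR-664-2-5p was most like miR-3596c (r = 0.79), miR-99b-3p (r = 0.78) and let-7e-5p (r = 0.75), and rno-miR-532-3p most like miR-423-5p (r = 0.72), miR-320-3p (r = 0.67) and miR-351-5p (r = 0.65).

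Among predicted new miRNAs, 2 entries followed a member more closely than any known miRNA did. The entry named for rn4 chromosome 7, 122973513 to 122973637, followed rno-miR-1249 with r = 0.97 and a median of 0.736 counts per count of rno-miR-1249. It also followed rno-miR-6328, which is on chromosome 20, with r = 0.93. The entry named for chromosome 13, 101253957 to 101254085, followed rno-miR-664-3p with r = 0.95 and a median ratio of 0.824. The 2 entries lie on chromosomes that carry rno-miR-1249 and rno-miR-664-3p, respectively, in GRCr8. Their positions in rn4 were not compared with GRCr8, so whether they are the same loci was not tested.

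Base composition moved with the early lung difference well beyond the members. Among 212 other known rat miRNAs with a sequence, the log2 change at 15 Gy 1 week correlated with the share of G and C bases (Pearson r = 0.52, across miRNAs, which share the same libraries and are not independent). The tertile richest in G and C (52.2% or more) had a median change of 0.51 and the poorest tertile (43.5% or less) had -0.36. The correlation was 0.30 at 2 weeks, -0.04 at 3 weeks and -0.15 at 4 weeks. Without the 2 shallow libraries it was 0.55 at 1 week, on log2 means of CPM. The tertile medians at 2 weeks were not graded, at 0.02 (poorest), -0.01 (middle) and 0.21 (richest). With the share of cytosine alone, the correlation was weaker at the early weeks: 0.28 at 1 week and 0.27 at 2 weeks. It was 0.10 at 3 weeks and -0.05 at 4 weeks.

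The members mostly stood at the G and C rich end. rno-miR-6328 had 76.2% G and C, rno-miR-1249 and rno-miR-532-3p 63.6% each, rno-miR-702-3p 60.9% and rno-miR-664-2-5p 52.4%, beside a median of 47.8%. rno-miR-664-3p had 40.9%, in the poorest tertile, and its log2 change at 1 week was 1.40. Each 15 Gy 1 week library had a positive contrast of rich over poor miRNAs (0.918, 0.623 and 0.452 on the log2 scale), against -0.418 and -0.18 in the deep 0 Gy 1 week libraries, but 0 Gy 4 weeks also held 0.54 and 0.293 beside -0.664. The part of base composition in the members' early difference was not tested.

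**Figure D3:**
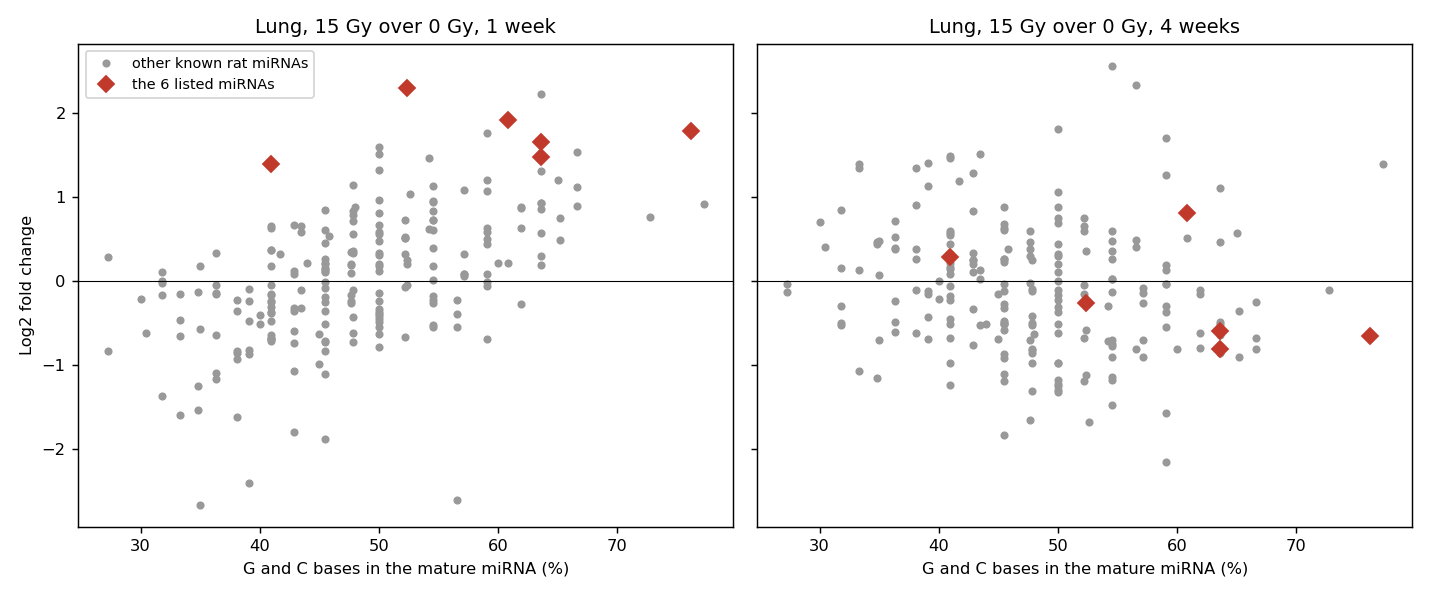
The horizontal axis is the share of G and C bases in the mature miRNA and the vertical axis the log2 change of 15 Gy over 0 Gy in lung, at 1 week on the left and 4 weeks on the right, with grey points for 212 other known rat miRNAs and red diamonds for the 6 members. The grey cloud slopes upward at 1 week (r = 0.52) and not at 4 weeks (r = -0.15), and the members lie in its upper part or above it at 1 week, a week of the choice, and among the grey points at 4 weeks.

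Markers of blood cells in lung are given beside these values. Of 5 red cell miRNAs, 0 passed the threshold in any lung comparison (edgeR). Their summed share of counts was 5.75%, 2.98% and 2.89% at 15 Gy 1 week and 1.23%, 2.24% and 4.23% at 15 Gy 2 weeks, against 0.997% and 1.31% in the deep 0 Gy 1 week libraries. All 15 Gy 1 week libraries thus lay above the deep controls in this sum, while the 2-week libraries overlapped with them. The 2 shallow libraries held 5.88% (0 Gy 1 week) and 48.49% (15 Gy 3 weeks), so the second stood apart from the 1.33% and 2.32% of its group. Most of the sum at 15 Gy 1 week was miR-486-5p (5.65%, 2.815% and 2.775% of counts). By fitted change, 1 of 5 was positive at 1 week (median -0.21), beside 55.9% of all miRNAs tested. That was miR-486-5p, at 1.15 (SE 1.24), and the other red cell miRNAs had negative changes. At 2 weeks 5 of 5 were positive (median 0.32), beside 56.1%. Of 4 leukocyte miRNAs, 0 passed at any week, and at 1 week all 4 had negative changes, with a median of -0.78 and -1.59 for miR-142-5p (unadjusted p = 0.00963, edgeR). The part of these cells in the members' levels was not tested. In whole tissue, fewer cells of a type and less RNA per cell cannot be told apart.

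The other miRNAs with unusual processing on the list set beside the members did not pass the test either. Of 8 (among them miR-877, a mirtron, miR-320 and miR-484, which skip Drosha in mouse or human, and miR-451, which skips Dicer), 6 were tested in lung. None passed at 3 or 4 weeks, with medians of 0.54 and 0.39, and the largest change was 2.66 for miR-451-5p at 3 weeks (edgeR, adjusted p = 0.574). miR-451-5p is itself a red cell miRNA, and that fit held the library with 48.49% red cell miRNAs, whose part in the change was not tested. At 1 week 5 of 6 had positive changes (median 0.83, up to 1.54 for miR-3102), beside 55.9% of all miRNAs tested, and 0 were under an unadjusted p of 0.05. At 2 weeks 5 of 6 were positive (median 0.98), beside 56.1% of all miRNAs tested, and miR-484 alone was under that p. The log2 change of miR-484 was 1.33, with an adjusted p of 0.703 by edgeR. Of 7 rat miRNAs numbered near miR-6328, none had enough counts to be tested.

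The labels and the study's own table disagree over 2 blood libraries, 0 Gy 1 week replicate 1 and 15 Gy 1 week replicate 2, whose counts that table lists in exchanged positions. The labels were followed. With those libraries exchanged, the log2 change of rno-miR-532-3p in blood was -0.22 at 1 week and -1.21 at 2 weeks, beside -0.35 and -1.27 as labelled.

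In blood, the members were close to the limit of detection. In these libraries 3 counts were worth 1.28 to 2.59 CPM. rno-miR-664-2-5p had 0 counts in 16 of 18 libraries, and its 3 counts were all at 15 Gy 1 week. rno-miR-1249 had 0 to 3 counts, rno-miR-664-3p 0 to 6, rno-miR-702-3p 0 to 7 and rno-miR-6328 0 to 15 per library. A member that passed no filter was not tested, so differences of these 5 members were not detectable at this depth.

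rno-miR-532-3p was the only member that passed the filter in blood, with 8 to 35 counts. At 15 Gy 2 weeks it had 3.71, 3.87 and 6.46 normalised CPM, against 7.31, 10.5 and 17.2 at 0 Gy 1 week, and the groups did not overlap. Its log2 change was -1.27 (interval -2.29 to -0.26), with an unadjusted p of 0.0276 and an adjusted p of 0.325 (edgeR), so it did not pass. In plain CPM the 2 groups did overlap, at 6.92, 5.69 and 11.3 against 7.45, 7.82 and 8.69, and with library totals as the scale the log2 change was 0.00. The difference at 2 weeks therefore rests on the scaling.

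At the other weeks in blood, the log2 change of rno-miR-532-3p was -0.35 at 1 week, -0.51 at 3 weeks and -0.34 at 4 weeks, none past the threshold (edgeR, adjusted p of 0.981, 0.640 and 0.973). In blood 0.346% of the 289 miRNAs tested passed at 1 week, 0.346% at 2 weeks, 0% at 3 weeks and 0% at 4 weeks. Of the members 0 of 1 passed at each week. rno-miR-6328, which was not tested, had 0, 3 and 3 counts at 15 Gy 2 weeks against 5, 3 and 10 at 0 Gy 1 week, and 0, 5 and 1 counts at 15 Gy 4 weeks against 5, 6 and 15 at 0 Gy 4 weeks.

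Lung was set against blood in the rats of 0 Gy 4 weeks. In plain CPM at 0 Gy 4 weeks, rno-miR-664-3p had 49.4, 84.4 and 22.6 in lung, against 1.47, 0.855 and 1.93 in blood. rno-miR-1249 had 13.4, 26.8 and 15.5 in lung, against 0.489, 0 and 0.963 in blood. rno-miR-664-2-5p had 71 counts over 3 lung libraries (9.46 CPM) against 0 in blood, at least 20.4-fold higher in lung when 3 counts over the blood group are allowed. rno-miR-532-3p had 7.88, 11.9 and 10.7 in lung, against 7.82, 3.42 and 16.8 in blood, and its lung and blood ranges overlapped on this scale.

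Only rno-miR-532-3p had enough counts to pass the filter in blood alone. The other 5 members entered the fit over both tissues through lung, where their counts are higher. For those 5, the differences and adjusted p-values are a description and no test, as is the number called. The fit placed 3 of 6 members higher in lung (43.6% of the 576 miRNAs tested were) and 1 of 6 lower (22.2% were; edgeR, adjusted p under 0.05). The log2 differences were 2.85 for rno-miR-664-3p (SE 0.57, adjusted p = 0.000115), 3.06 for rno-miR-1249 (SE 0.87, adjusted p = 0.00341) and -1.94 for rno-miR-532-3p (SE 0.49, adjusted p = 0.00107). rno-miR-664-2-5p was higher too (adjusted p = 0.000895), with no size given on this scale because blood was at 0. rno-miR-702-3p (0.58) and rno-miR-6328 (-0.32) did not pass, and DESeq2 did not call rno-miR-1249 (adjusted p = 0.0561).

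The scale of the lung and blood contrast depended on the normalisation. The median difference of all miRNAs was 1.76 in this fit, 0.92 with RLE size factors and 3.87 with library totals. Under each of these 3 scalings rno-miR-664-2-5p, rno-miR-1249 and rno-miR-664-3p stood at the lung end and rno-miR-532-3p at the blood end. The signs of rno-miR-702-3p, rno-miR-6328 and rno-miR-532-3p were not the same under all 3, and with library totals rno-miR-532-3p stood at 0.12. Leaving out any 1 of the 6 libraries left 2 of 6 members called, since rno-miR-1249 and rno-miR-664-3p then missed the threshold (edgeR, adjusted p of 0.0871 to 0.451 and of 0.0568 to 0.184). The median of all miRNAs was then 0.14 to 0.51.

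Ratios of 2 miRNAs within a library avoid the scaling. The 2 arms of the miR-532 hairpin were held in opposite proportion in the 2 tissues. At 0 Gy 4 weeks, lung libraries had 30, 24 and 18 counts of rno-miR-532-3p with 179, 98 and 125 of rno-miR-532-5p, whereas blood libraries had 16, 8 and 35 of the 3p arm with 6, 4 and 3 of the 5p arm. The 3p to 5p ratio was 0.0602 to 1.00 over 16 lung libraries (median 0.246) and 0.923 to 11.7 over 18 blood libraries (median 2.71). The 5p arm led or tied in every deep lung library, and the 3p arm led in 17 of 18 blood libraries.

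Over the 8 deep lung and 9 blood libraries of 0 Gy 4 weeks, 15 Gy 3 weeks and 15 Gy 4 weeks, the log2 ratio of 3p to 5p, with 0.5 added to each count, averaged -2.41 ± 0.446 in lung and 1.41 ± 1.07 in blood (SD). The mean of the differences within the 3 matched groups was -3.76, with p = 0.00025 by an exact two-sided permutation test within those groups, the smallest p it can give (0.000375 adjusted over 3 ratios). The log2 ratio of rno-miR-532-3p to rno-miR-664-3p differed by -4.83 between lung and blood. Since rno-miR-664-3p passed the filter in lung, where it is high, and not in blood, this difference is a description. The third ratio, of rno-miR-664-2-5p to rno-miR-664-3p, gave no comparison, since those blood libraries held 0 counts of rno-miR-664-2-5p beside 24 of rno-miR-664-3p. These 3 ratios were chosen after the counts had been seen, and rno-miR-532-5p did not pass the filter in blood either. The p-value of the arm ratio therefore describes these libraries and tests no prediction.

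Within lung the 3p share of miR-532 was 41.5%, 50% and 27.5% at 15 Gy 1 week and 25.6%, 29.5% and 16.7% at 15 Gy 2 weeks, against 22.5% and 5.68% at 0 Gy 1 week, weeks that chose the 3p arm. The 2-week libraries overlapped with these controls, and the lower control rested on 5 counts of the 3p arm. The share was 23.2% and 19.8% at 15 Gy 3 weeks and 11.5%, 13.2% and 11.1% at 15 Gy 4 weeks, against 14.4%, 19.7% and 12.6% at 0 Gy 4 weeks. rno-miR-532-5p itself had 26.7, 19.6 and 52.1 normalised CPM at 15 Gy 1 week against 33.8 and 71.0 at 0 Gy 1 week, and a log2 change of -0.45 (SE 0.63). Of 6 cluster miRNAs listed beside rno-miR-532-3p, 2 were tested in lung, miR-532-5p and miR-501-3p, and neither passed at 3 or 4 weeks.

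**Figure D4:**
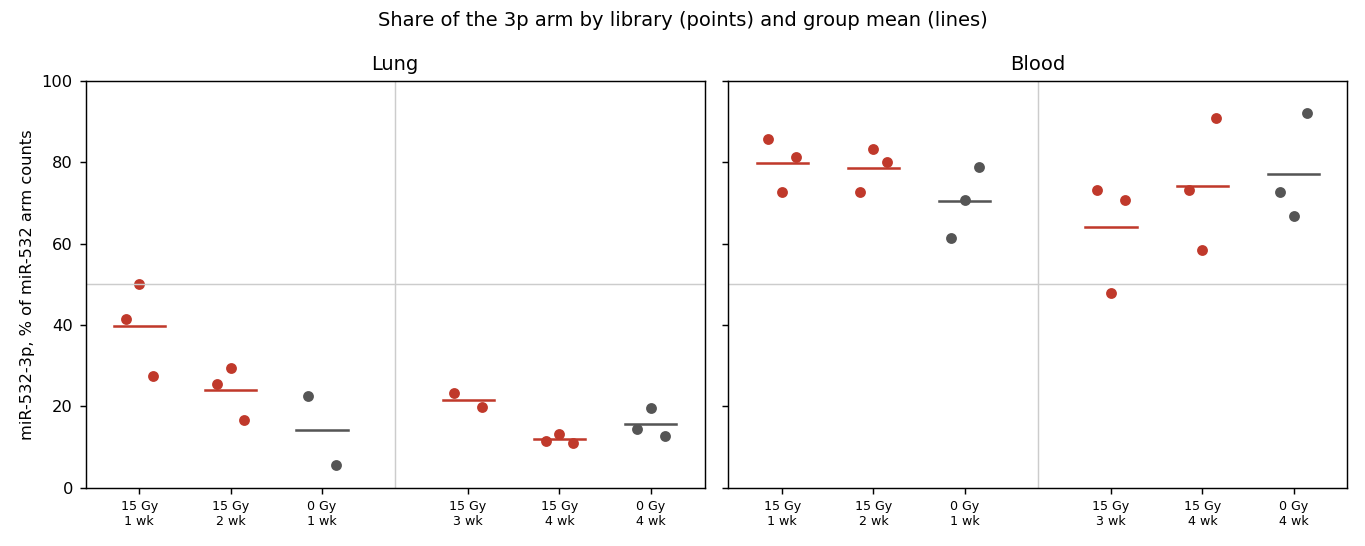
The vertical axis is the percent of miR-532 arm counts that came from the 3p arm, with lung on the left and blood on the right, groups on the horizontal axis, points for libraries and lines for group means (red 15 Gy, grey 0 Gy). The highest lung library (8 of 16 counts, 50%, 95% Wilson interval 28% to 72%) and the lowest blood library (12 of 25 counts, 48%, interval 30% to 66.5%) meet, while the other lung points lie below 50% and the other blood points above it.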

How the data were processed

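Small RNA libraries from 18 lung and 18 blood samples were analysed from the deposited table of read counts. By the study's methods and the labels, the authors trimmed adapters (Trim Galore 0.2.5), mapped reads with Bowtie 1.1.1 to miRBase v19, removed reads of other RNAs and predicted new miRNAs on build rn4. The deposited values are raw counts, with no normalisation and no molecular identifiers, so intervals and floors cover counting error only. The 3 deposited classes were kept together.

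Counts were filtered (filterByExpr), scaled (TMM) and tested per tissue with edgeR 4.0.16 (quasi-likelihood, limma 3.58.1, R 4.3.3), with Benjamini-Hochberg adjustment over all tested miRNAs and a threshold of 0.05. Weeks 1 and 2 were set against 0 Gy 1 week, and weeks 3 and 4 against 0 Gy 4 weeks. Lung and blood at 0 Gy 4 weeks were compared in a joint fit of 36 libraries. Standard errors are the change divided by the root of F. For low counts edgeR also bounds p by a Poisson test, so a p can exceed what the SE implies. The study used DESeq. DESeq2 1.42.0 and other alternatives were run, and the fit was tested on simulated data. Likeness used log2 CPM with a prior count of 2. No 2 libraries of the same group agreed within sampling noise.

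The members and lists were chosen with earlier results of these data known. The members are named throughout, with the partner arm, listed miRNAs at the ends of their list or under the threshold, and the most alike miRNAs. Replicate numbers of the labels are shared by groups. Same-numbered libraries deviated together in every pair only for lung 15 Gy 2 weeks and 0 Gy 1 week (r of 0.181, 0.186 and 0.283), a hint from the data, not the labels.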

Additional observations from a re-analysis of the deposited data

Results flagged for a closer look

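On normalised CPM, rno-miR-6328 and rno-miR-532-3p had log2 ratios of 15 Gy over 0 Gy 1 week of opposite sign in lung and blood. For rno-miR-6328 at 2 weeks the ratios differed by 5.26 (2.39 in lung, -2.87 in blood). Its blood counts were 0, 3 and 3 at 15 Gy against 5, 3 and 10 at 0 Gy. The blood groups lay apart in normalised CPM (0 to 1.16 against 1.86 to 11.5). In plain CPM they overlapped, at 0, 1.71 and 1.69 against 2.33, 1.38 and 5.80, and the blood ratio was -1.48. At 1 week the ratios of rno-miR-6328 differed by 2.75 (1.73 in lung, -1.02 in blood), but the blood groups overlapped and the sign in blood rested on 1 control. Without 0 Gy 1 week replicate 3, an alternative chosen after seeing the data, the blood ratio was 0.31 at 1 week and -1.54 at 2 weeks. For rno-miR-532-3p at 2 weeks the ratios differed by 2.38 (1.06 in lung, -1.32 in blood). On plain CPM, also chosen after seeing the data, its blood ratio was -0.0046, so this opposite sign rests on the scaling. None of these differences was tested, since the lung values chose the members.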

How the results depend on the processing

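All 6 members kept positive changes in lung at 1 and 2 weeks under each alternative that could be fitted. Those weeks chose the members for being higher, so nothing is read from the kept sign. Fitting known rat miRNAs alone called 6 miRNAs in lung at 1 week, 1 in lung at 4 weeks, 0 in blood at 1 and 2 weeks and 172 in the tissue contrast. The 6 at 1 week included 2 members, but that week chose the members, so nothing is read from their number. DESeq2 called 6, 6, 5 and 11 miRNAs in lung and 4, 3, 3 and 4 in blood, by week. Pooled controls gave 1 call in lung at 1 week, 2 at 4 weeks and 0 in blood at 1 and 2 weeks. Fitting only 2 groups gave 1 in lung at 4 weeks, 0 in blood at 1 week and 2 at 3 weeks, depth as a covariate gave 1 in lung at 1 week, and exchanging blood 0 Gy 1 week replicate 1 with blood 15 Gy 1 week replicate 2 gave 0 in blood at 1 and 2 weeks. Leaving out 1 library gave 1 to 2 calls in blood at 1 week, 0 to 1 at 3 weeks and 2 members in the tissue contrast. Without miR-486-5p 2 members were called there, because the other 2 called members were then no longer tested.

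Some signs turned, and the cause was not tested. Most of these changes were small, except those of rno-miR-532-3p in blood at 2 weeks (-1.27) and in the tissue contrast (-1.94). In lung at 3 weeks, library totals gave 0.0566 for rno-miR-1249, 0.29 for rno-miR-532-3p and 0.20 for rno-miR-702-3p (0.11 with DESeq2), and pooled controls gave 0.0582, 0.16, 0.0744 and, for rno-miR-6328, 0.0302. In lung at 4 weeks rno-miR-664-2-5p was 0.16 with pooled controls and 0.12 with depth as a covariate. Leaving out 1 library at 3 weeks gave -0.62 to 0.43 for rno-miR-702-3p, -0.66 to 0.0429 for rno-miR-1249, -0.51 to 0.43 for rno-miR-532-3p and -0.81 to 0.0626 for rno-miR-6328. At 4 weeks it gave -0.86 to 0.0394 for rno-miR-532-3p and -0.55 to 0.13 for rno-miR-664-2-5p. In blood rno-miR-532-3p was 0.00045 at 2 weeks and 0.0518 at 4 weeks with library totals, and -0.83 to 0.0626 at 3 weeks and -0.77 to 0.23 at 4 weeks without 1 library. In the tissue contrast rno-miR-702-3p was -0.32 with RLE size factors and -0.32 with DESeq2, and -1.35 to 0.53 without 1 library. There rno-miR-532-3p was 0.12 and rno-miR-6328 1.85 with library totals, and rno-miR-6328 was 0.11 among known miRNAs alone.

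The replicate block gave 0.16 for rno-miR-702-3p in lung at 3 weeks and changed no call of a member. With 3 libraries a group and members at 1 to 209 counts in the deep lung libraries, changes under about the interval widths given were not detectable.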
